A study of Rattus norvegicus with 16 samples.

Results

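The release machinery of secretory and synaptic vesicles was examined in dorsal root ganglia (DRG) of adult and young rats after spared nerve injury (SNI). Its members were taken by gene symbol, without use of any measured value: the synaptotagmins, syntaxins, VAMPs, SNAP23, SNAP25 and SNAP29, the syntaxin-binding proteins, complexins, synapsins, SV2 proteins, synaptophysin, synaptogyrins, RAB3 GTPases and LIN7 proteins. Of 14217 genes with a symbol of their own on the array, 62 were members. They comprised 16 synaptotagmins, 12 syntaxins, 7 VAMPs, 4 RAB3 genes, 4 syntaxin-binding genes, 3 each of the SNAP, LIN7, SV2, complexin, synapsin and synaptogyrin genes, and synaptophysin. Where a gene had several Affy_IDs (probe sets), as 25 of the 62 did, the one of highest mean value stood for it.

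Vesicles fuse when a VAMP on the vesicle zips together with a syntaxin and a SNAP protein on the target membrane. Synaptotagmins sense the calcium that starts fusion, complexins clamp and promote the assembled complex, and syntaxin-binding proteins hold or release the syntaxin. Synapsins, SV2, synaptophysin and synaptogyrins belong to the vesicle itself, RAB3 proteins tether it, and LIN7 proteins are scaffolds of the membrane to which it is delivered. DRG neurons release glutamate and neuropeptides from their spinal and peripheral terminals with these proteins, and their cell bodies, with most of the mRNA, lie in the ganglion.

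Messenger RNA of L4/L5 DRG from Sprague-Dawley rats was measured on 16 arrays, 7 days after surgery. Adult SNI, adult contralateral (the uninjured side of SNI rats) and adult sham (the operated side, nerve exposed and not cut) had 3 arrays each, from male rats 2 months of age. Young SNI and young contralateral had 2 arrays each and young sham 3, from rats 10 days old at surgery and 17 days old at collection. The RNA of 3 adult rats (6 DRG), or of 4 young ones (8 DRG), was combined for each array, so the spread between arrays is one between pools. All values are log2 GC-RMA values unless a fold is named, and compare arrays within 1 gene but not genes with each other. As a whole ganglion was taken, fewer cells of a type and less RNA per cell cannot be told apart.

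The neuronal content of the arrays was checked with lists of marker genes. The 14 measured markers of DRG neurons (peripherin, Scn10a and others) averaged 12.78 to 13.19 in 15 of the arrays and 11.75 in young SNI array 2. In that array 8 of 9 central glia markers and 5 of 8 central neuron markers exceeded every other array. The central glia list averaged 9.46 there and 3.00 to 3.58 in the other 15 arrays, and the central neuron list 6.50 there and 2.96 to 3.30 in the others. Array medians lay between 5.13 and 5.475. The 8 injury markers did not follow all the young labels. Atf3, a transcription factor induced in axotomised neurons, had 7.77 and 10.17 in young SNI arrays 1 and 2, against 9.06 and 4.87 in young contralateral arrays 1 and 2 and 9.49, 11.00 and 7.75 in young sham arrays 1 to 3. Sprr1a, a growth-associated gene, had 4.30 and 9.57 in young SNI, against 7.56 and 2.22 in young contralateral and 8.24, 9.92 and 3.50 in young sham. The library labelled young sham 2 therefore carried injury markers near the level of adult SNI (Atf3 11.60 to 11.81), and above young SNI array 1. Values of young SNI array 2 can be read apart where arrays are listed, and some estimates are also given without it. Unless a fit without it is named, results that use young SNI include that array. For some counts, fits without young sham array 2, and also without young contralateral array 1, are given too. Young sham array 1 had more Atf3 and Sprr1a than young contralateral array 1 and was kept in those fits.

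Few members changed in adult SNI, and 3 genes passed the test in at least 1 comparison with controls. Stx1a (syntaxin-1A, the plasma membrane syntaxin of neuronal exocytosis) and Syt4 (synaptotagmin-4, found on dense core vesicles) rose, and Lin7b (a scaffold protein of the LIN7 complex) fell. With limma and an adjusted p threshold of 0.05, 1 member was higher and 1 lower in adult SNI than in adult sham, where 0.577% of all genes were higher and 0.0492% lower (0.626% in all). Against the contralateral side 1 was higher and 1 lower, beside 1.4% and 0.134% of all genes (1.53% in all). Against the mean of both controls 2 were higher and 1 lower, beside 1.64% and 0.218% of all genes (1.86% in all). The median log2 difference of the 62 members was -0.05 against the mean of both controls, beside -0.02 for all genes.

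Stx1a had 8.35, 8.37 and 8.43 in adult SNI, against 7.63, 7.63 and 7.75 in adult contralateral and 7.45, 7.67 and 7.51 in adult sham. Every adult SNI array lay above all 6 adult control arrays, which held for 2 of 62 members (Stx1a and Syt4) and 4.52% of all genes. The log2 difference was 0.84 against sham (SE 0.10, limma adjusted p = 0.00816), 0.71 against the contralateral side (SE 0.10, limma adjusted p = 0.0108) and 0.78 against both (SE 0.09, limma adjusted p = 0.00246), a fold of 1.71. The call against both controls held without any 1 array. That against the contralateral side was lost without adult contralateral array 1 (adjusted p = 0.0638) or array 2 (adjusted p = 0.0509), and after quantile normalization neither the call against sham (adjusted p = 0.0515) nor that against the contralateral side (adjusted p = 0.0971) was made. A second Affy_ID of Stx1a had 5.83, 6.72 and 5.61 in adult SNI, against 5.75, 5.60 and 5.34 in adult contralateral and 5.15, 4.95 and 5.16 in adult sham. It differed by 0.73 from both controls (SE 0.19, limma adjusted p = 0.124), in the same direction but with overlap of adult SNI array 3 and the contralateral arrays.

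Syt4 had 13.19, 13.09 and 13.00 in adult SNI, against 12.40, 12.53 and 12.13 in adult contralateral and 12.51, 12.30 and 12.44 in adult sham, again without overlap. The log2 difference from both controls was 0.71 (SE 0.14, limma adjusted p = 0.0402), a fold of 1.63. Against a single control it did not pass, with 0.68 from sham (limma adjusted p = 0.162) and 0.74 from the contralateral side (limma adjusted p = 0.0736). The call was lost without any 1 of 12 arrays, namely the 9 adult arrays, young sham array 1 and both young contralateral arrays, with adjusted p of up to 0.155, and after quantile normalization (adjusted p = 0.0741). A second Affy_ID of Syt4 differed by 0.77 (SE 0.18, limma adjusted p = 0.0764), which is close to the first in size.

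Lin7b had 7.75, 8.17 and 7.53 in adult SNI, against 8.55, 9.22 and 8.66 in adult contralateral and 9.0, 9.02 and 8.91 in adult sham. All adult SNI arrays lay below all adult controls. The log2 difference was -1.16 from sham (SE 0.20, limma adjusted p = 0.0272), -0.99 from the contralateral side (SE 0.20, limma adjusted p = 0.0393) and -1.08 from both (SE 0.17, limma adjusted p = 0.0103), a fold of 0.474. The call against both controls was lost without adult SNI array 3 (adjusted p = 0.0626). That against sham was lost without any 1 of adult sham arrays 1 to 3, adult SNI arrays 1 and 3 or young sham array 1, and that against the contralateral side without any 1 of 11 arrays, all adult and young control arrays but young sham arrays 2 and 3 and also adult SNI arrays 1 and 3. When only the groups compared were fitted, neither was made (adjusted p = 0.148 against sham and 0.172 against the contralateral side). Its relatives Lin7a and Lin7c did not pass. Lin7a had 5.39, 6.11 and 4.82 in adult SNI, against 6.16, 6.62 and 6.39 in adult contralateral and 6.68, 6.22 and 5.67 in adult sham (log2 difference from both -0.85, SE 0.27, limma adjusted p = 0.224).

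**Figure D1:**
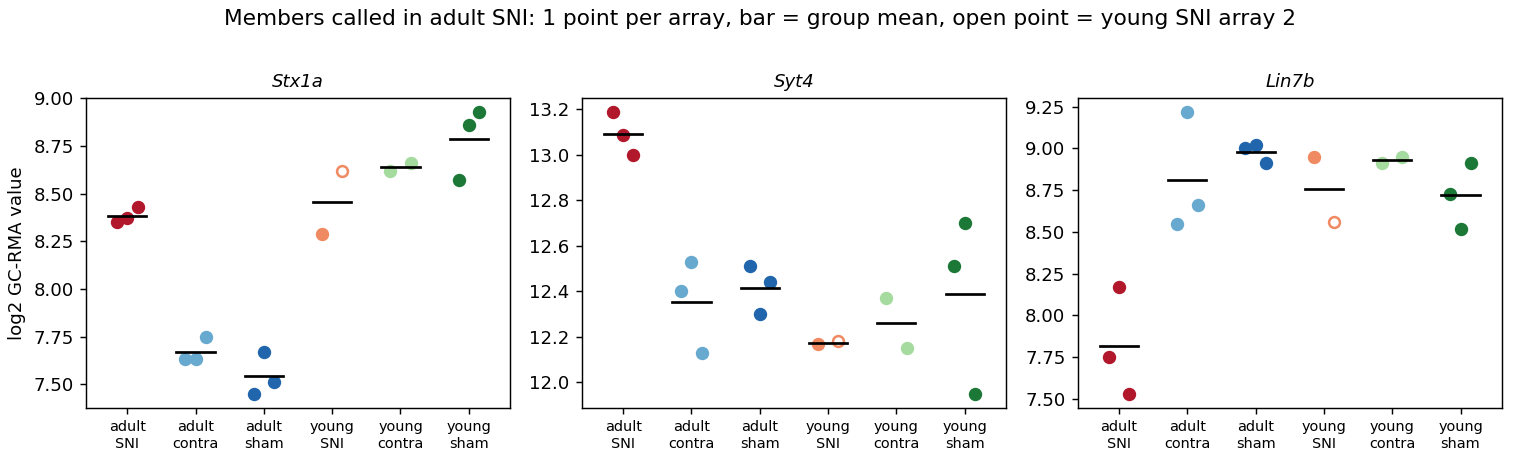
Log2 GC-RMA value (vertical axis) of Stx1a, Syt4 and Lin7b in each array, by group (horizontal axis). Points are arrays, bars are group means and the open point is young SNI array 2; adult SNI lies at 8.35 to 8.43, above the adult controls, for Stx1a, and at 7.53 to 8.17, below them, for Lin7b.

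Sequence upstream of the 2 genes that rose is shown so that matches to short motifs can be read directly. The stretches come from RefSeq (rat build GRCr8), run 5′ to 3′ on the minus strand, and lie outside the annotated span of each gene; capitals mark GC boxes (GGGCGG, either strand) in Stx1a and a CRE half-site (TGACG, either strand, here read as CGTCA) in Syt4.
Stx1a, chr12:27306548-27306721: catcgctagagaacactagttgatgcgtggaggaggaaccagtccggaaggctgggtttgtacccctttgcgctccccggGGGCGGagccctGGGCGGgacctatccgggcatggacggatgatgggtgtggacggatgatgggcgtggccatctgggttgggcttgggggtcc
Syt4, chr18:23320864-23321113: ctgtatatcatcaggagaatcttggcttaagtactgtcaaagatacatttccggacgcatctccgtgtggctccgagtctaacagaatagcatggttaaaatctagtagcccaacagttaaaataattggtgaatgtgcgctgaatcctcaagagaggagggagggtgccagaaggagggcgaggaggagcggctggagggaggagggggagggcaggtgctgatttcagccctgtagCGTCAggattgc
The 174 bases of Stx1a held 2 GC boxes and no CRE half-site, and the 250 bases of Syt4 held 1 CRE half-site and no GC box. For Lin7b the upstream window lay inside the annotated gene and is not printed. Over the 250 bases before the start, 50 of the 62 members had a sequence. These windows were not trimmed to bases outside the annotated gene. Those of Stx1a (4 GC boxes) and Lin7b (1 GC box) thus hold sequence of the gene, and other windows may too. The AP-1 motif TGACTCA, bound by the dimers in which Atf3 and Jun take part, was in 0 of these 50 and in 3.46% of 11733 measured genes. The full CRE (TGACGTCA) was in 4% of members and 2.64% of genes, its half-site in 30% and 25.8%, and the GC box in 64% and 54.2%. The full CRE contains the half-site, so those counts overlap, and a match is only a match of letters in this window.

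Among the other membrane fusion proteins of adult SNI, none passed the limma threshold against both controls, and the values that follow are of the members with the smallest p. Stxbp3 (Munc18-3, the partner of syntaxin-4) had 10.38, 10.57 and 10.72 in adult SNI, against 10.03, 10.29 and 9.95 in adult contralateral and 10.10, 9.81 and 10.42 in adult sham. The difference from both was 0.46 (SE 0.17, limma adjusted p = 0.315), with overlap only with sham. Stx5 (Golgi transport) differed by 0.26 (SE 0.11) and Stx18 (endoplasmic reticulum) by -0.35 (SE 0.15), both without passing. Stx4, the plasma membrane syntaxin of many cell types, differed by 0.42 from the contralateral side (SE 0.16, limma adjusted p = 0.392). Of the 12 syntaxins only Stx1a passed, and of the 7 VAMPs and 3 SNAP genes 0 passed. At an unadjusted p under 0.05 against both controls, 3 syntaxins, 0 VAMPs and 0 SNAP genes were found, beside 13% of all genes. The core partners of Stx1a, which form the neuronal fusion complex with it, had small differences. Snap25 had 13.91, 13.84 and 13.75 in adult SNI, against 13.90, 14.12 and 13.96 in adult contralateral and 14.48, 13.93 and 13.95 in adult sham. Vamp2 had 10.59, 10.76 and 10.59 in adult SNI, against 10.37, 10.74 and 10.60 in adult contralateral and 10.74, 10.48 and 11.01 in adult sham, so its groups overlapped throughout.

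Several neuronal vesicle genes had lower values in adult SNI without passing the test. Rab3a, the main RAB3 GTPase of synaptic vesicles, had 12.31, 12.62 and 12.55 in adult SNI, against 12.61, 13.00 and 12.77 in adult contralateral and 13.28, 12.85 and 12.88 in adult sham (difference from both -0.40, SE 0.12, limma adjusted p = 0.188). Rab3c, a relative on the same vesicles, had 7.71, 7.27 and 6.94 in adult SNI, against 8.33, 8.24 and 7.63 in adult contralateral and 8.39, 8.38 and 8.02 in adult sham, with overlap of SNI array 1 and contralateral array 3. Syn1 (synapsin I, which tethers vesicles to actin) had 10.54, 10.53 and 10.27 in adult SNI, against 10.90, 10.77 and 10.98 in adult contralateral and 10.92, 10.98 and 10.71 in adult sham (difference from both -0.43, SE 0.17, limma adjusted p = 0.365). Syp (synaptophysin, a common marker of synaptic vesicles) had 11.55, 11.51 and 11.32 in adult SNI, against 11.56, 11.68 and 11.81 in adult contralateral and 11.85, 11.68 and 11.65 in adult sham. For Syn1 and Syp, as for Lin7b, all adult SNI arrays lay below all adult controls, which held for 3 of 62 members and 3.04% of all genes. Syt12, a synaptotagmin that does not bind calcium, had 3.80, 4.65 and 3.56 in adult SNI, against 4.83, 5.18 and 4.76 in adult contralateral and 4.79, 4.62 and 4.80 in adult sham (difference from both -0.83, SE 0.26, limma adjusted p = 0.219). Syt6, another synaptotagmin, differed by -0.82 from the contralateral side (SE 0.28, limma adjusted p = 0.290).

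At an unadjusted p under 0.05, 4 members were higher and 8 lower in adult SNI against both controls, 12 of 62 where 13% of all genes reached that p. Against sham alone 10 members did (9.52% of all genes), and against the contralateral side 11 (12.6%). Adult SNI lay wholly above sham for 2 members and wholly below it for 10 (5.73% and 5.74% of all genes), and wholly above the contralateral side for 9 and below it for 11 (12.1% and 6.98%). Of all 62 members, 23 had a higher and 39 a lower mean in adult SNI than the mean of both control groups, and 44.3% of all genes a higher one. In the SV2, complexin and synaptogyrin families no gene passed. The 3 SV2 genes had a median log2 difference of -0.23, the 3 complexins -0.04 and the 3 synaptogyrins 0.33. The complexin median was the value of Cplx3, which lay near the background at 3.08 to 3.33 in all arrays. Sv2b (a vesicle membrane glycoprotein) had 13.10, 13.18 and 12.71 in adult SNI, against 13.27, 13.47 and 12.96 in adult contralateral and 13.52, 13.06 and 13.10 in adult sham. Cplx1 (complexin-1) had 13.05, 13.42 and 13.40 in adult SNI, against 13.10, 13.36 and 13.13 in adult contralateral and 13.28, 13.18 and 13.19 in adult sham, with full overlap. Of the 32 further Affy_IDs of members, 0 passed in adult SNI against both controls and 7 had a sign opposite to the one used, each with an unadjusted p of 0.05 or more. The 8 macrophage markers averaged 6.13 to 6.85 in adult SNI, 4.57 to 4.86 in adult contralateral and 4.97 to 5.64 in adult sham, whereas the DRG neuron list averaged 12.78 to 13.00 in adult SNI, 12.92 to 13.19 in adult contralateral and 12.79 to 12.99 in adult sham. The part of macrophages in the members' values was not tested.

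**Figure D2:**
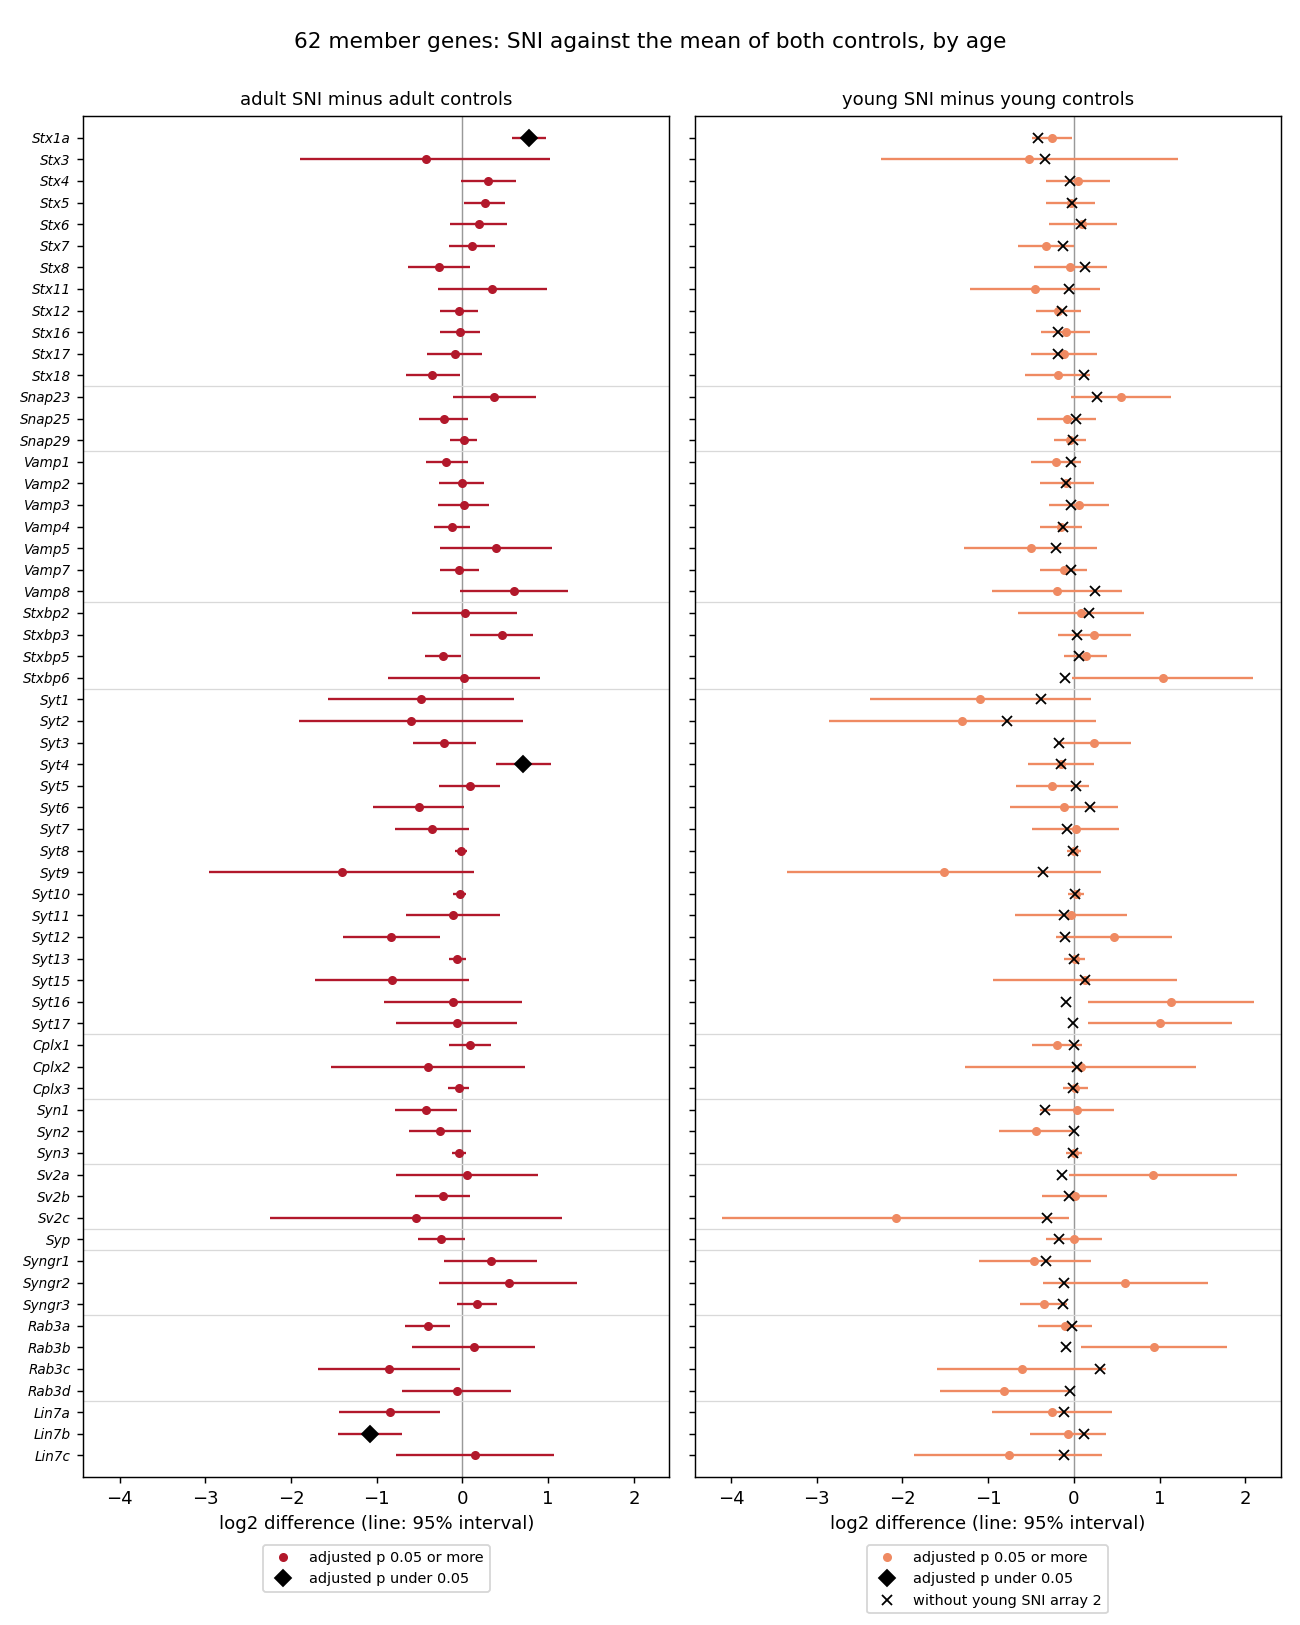
Log2 difference (horizontal axis) of SNI from the mean of its 2 control groups for the 62 members (rows, by family), in adult rats on the left and young rats on the right. Points are limma estimates with 95% intervals, diamonds have an adjusted p under 0.05 and crosses give young SNI without array 2; 3 members are diamonds in the adult panel and 0 in the young panel.

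In young SNI, 0 of 62 members passed the limma threshold against young sham (0.0211% of all genes), against young contralateral (0.0141%) or against both (0.0211%). At an unadjusted p under 0.05 there were 5, 6 and 9 members, where 7.11%, 6.65% and 9.35% of all genes had that p. Young SNI lay wholly above sham for 2 members and wholly below it for 3 (2.45% and 5.48% of all genes), above the contralateral side for 4 and below it for 12 (7.67% and 11.6%), and above both for 1 (Stxbp5) and below both for 1 (Stx12), beside 1.29% and 2.35%. The counts were also 0 with young sham 2 and young SNI 2 left out, and with young contralateral 1 left out as well. The 3 genes that changed in adult SNI had the following values. Stx1a had 8.29 and 8.62 in young SNI, against 8.62 and 8.66 in young contralateral and 8.57, 8.86 and 8.93 in young sham (difference from both -0.26, SE 0.11, limma adjusted p = 0.627). Without young SNI array 2 the difference was -0.42 (limma adjusted p = 1). In every fit without that array a single array stood for young SNI, and its spread was assumed to be that of the other groups. Syt4 had 12.17 and 12.18 in young SNI, against 12.37 and 12.15 in young contralateral and 12.51, 12.70 and 11.95 in young sham (difference -0.15, interval -0.53 to 0.23). Lin7b had 8.95 and 8.56 in young SNI, against 8.91 and 8.95 in young contralateral and 8.73, 8.52 and 8.91 in young sham (difference -0.07, interval -0.51 to 0.37). For Syt4 and Lin7b the young groups overlapped. For Stx1a, young SNI array 1 lay below all young controls and array 2 did not.

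Several of the larger young differences rested on young SNI array 2. It lay outside the range of the other 15 arrays for 26 members, above it for 10 and below it for 16, beside 9.97% and 25.3% of all genes. The share below was thus near that of all genes. Adult sham array 1 was above its other arrays for 16 members and below for 2, beside 14.5% and 9.1% of all genes. For adult SNI array 3 the counts were 3 and 12, beside 7.16% and 6.16%. For young SNI array 1 they were 0 and 0, beside 2.02% and 1.25%. Syt16, a synaptotagmin without calcium binding, had 6.27 in young SNI array 2, against 3.83 in young SNI array 1 and 3.67 to 4.02 in the other 15 arrays together. Rab3b, a RAB3 of endocrine and some central neurons, had 6.27 there, against 3.79 to 4.64. Sv2a, the SV2 of most central synapses, had 9.32 there, against 6.28 to 7.85. Syt17 had 4.45, against 2.36 to 2.98, and Stxbp6 (amisyn, which binds syntaxin) had 10.14, against 7.51 to 8.79. Lower there were Sv2c, with 3.00 against 4.43 to 7.44, Rab3d, with 7.84 against 8.94 to 9.82, and Rab3c, with 5.85 against 6.64 to 8.39. Syt12 had 6.02, against 3.56 to 5.18. The central glia and central neuron markers given above were high in the same array, and their part in these values was not tested.

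With and without that array the young estimates for these genes differed. Against both young controls, the log2 difference of Syt16 was 1.13 with young SNI array 2 and -0.09 without it, that of Syt17 1.01 and -0.01, that of Rab3b 0.94 and -0.10, that of Rab3d -0.81 and -0.04, and that of Sv2c -2.08 and -0.31. None of these passed either way. Syngr3 (synaptogyrin-3, a synaptic vesicle protein) had 12.41 and 11.96 in young SNI, against 12.53 and 12.52 in young contralateral and 12.63, 12.68 and 12.35 in young sham, with a difference of -0.35 (limma adjusted p = 0.626) and of -0.13 without array 2. When young SNI array 1 was left out instead, so that array 2 stood alone for the group, 8 members passed against sham, 9 against the contralateral side and 11 against both, 12.9%, 14.5% and 17.7% of the members, beside 13.7%, 13.1% and 15.6% of all genes in that fit. Sv2a, Rab3b, Rab3d, Stxbp6, Syt16 and Syt17 were among them each time.

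**Figure D3:**
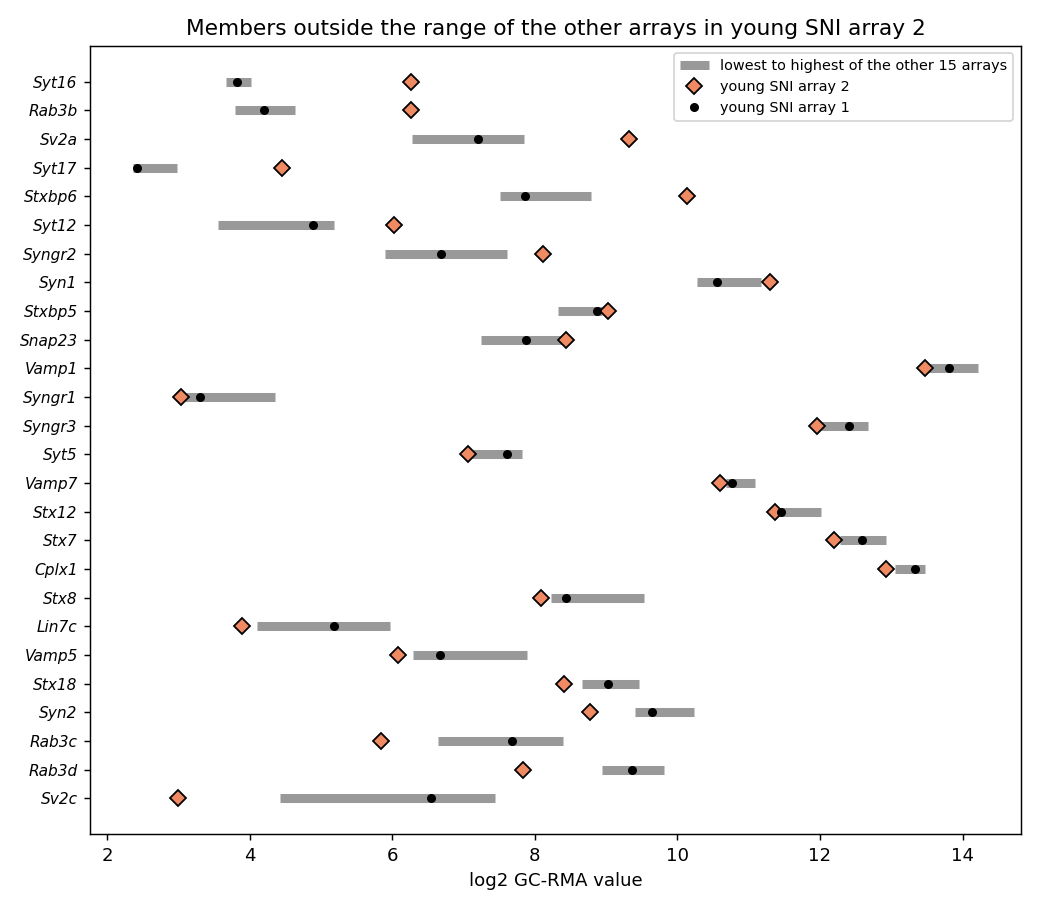
Log2 GC-RMA value (horizontal axis) of the 26 members (rows) for which young SNI array 2 lay outside the other 15 arrays. Diamonds are young SNI array 2, dots young SNI array 1 and grey bars the range of the other 15 arrays; Syt16 lies at 6.27 with a bar of 3.67 to 4.02 and Sv2c at 3.00 with a bar of 4.43 to 7.44.

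To compare the ages, the response of each to SNI was taken against both of its control groups, and the young response was subtracted from that of adults. Xist differed between these groups (given below), and sex was not a term of the fit. Stx1a was higher, and no other member passed, 1 of 62 beside 0.113% of all genes (0.0211% lower, 0.134% in all). At an unadjusted p under 0.05 there were 7 members, where 10.1% of all genes had that p. The difference in response of Stx1a was 1.03 (SE 0.14, limma adjusted p = 0.0238), from 0.78 in adult and -0.26 in young rats. Without young SNI array 2 it was 1.20 (limma adjusted p = 0.00693). It no longer passed without adult contralateral array 1, adult contralateral array 2, adult SNI array 2, adult SNI array 3 or young contralateral array 1, with adjusted p of 0.0564 to 0.0718. Nor did it pass with a variance trend (adjusted p = 0.0616), the filter on low values (0.0544) or quantile normalization (0.219). The difference was -1.01 for Lin7b (SE 0.26, limma adjusted p = 0.294) and 0.86 for Syt4 (SE 0.22, limma adjusted p = 0.294), so a different response at the ages was not shown for either. For Syt12 it was -1.29 (limma adjusted p = 0.460) and -0.73 without young SNI array 2, for Syngr3 0.52 (limma adjusted p = 0.465) and 0.30 without it, and for Stxbp5 (tomosyn, an inhibitor of fusion) -0.37 (limma adjusted p = 0.602).

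Between control ganglia of the ages the share of members called was near that of all genes. Of the 62, Vamp4 and Stx8 were higher and Stx1a and Syngr3 lower in adult than in young controls, 4 members or 6.45%, beside 5.25% of all genes (2.58% higher and 2.67% lower). Between adult sham and young sham alone, Vamp4 was higher and Stx1a lower, 2 members beside 0.753% of all genes (0.324% higher and 0.429% lower). At an unadjusted p under 0.05 there were 15 and 9 members, where 20.7% and 15.1% of all genes had that p. The adult rats were male, and Xist, which is transcribed from the inactive X chromosome of females, was 2.32 to 2.57 in all adult arrays and 2.35 to 12.05 in young arrays. Sex thus differed in part between controls of the ages. In the SNI groups Xist was 2.32 to 2.46 in adult arrays and 11.84 and 12.05 in young arrays. There age and sex cannot be told apart, and young SNI was set against young controls of mixed Xist level. Among young controls Xist was as low as in adults in sham array 2 (2.36) and contralateral array 1 (2.35), and high in the other 3. In these 2 arrays Stx1a had 8.86 and 8.62, Stx8 8.26 and 8.36, Syngr3 12.68 and 12.53 and Vamp4 9.47 and 9.63, each on the young side of all adult controls. No test with sex as a term was run.

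Stx1a was the member with the smallest p between ages. As given above, adult contralateral and adult sham arrays lay between 7.45 and 7.75, against 8.57 to 8.93 in young contralateral and young sham arrays, with no overlap. The log2 difference of adult from young controls was -1.11 (SE 0.08, limma adjusted p = 9.96e-05), a fold of 0.464, and that of adult sham from young sham -1.24 (SE 0.10, limma adjusted p = 0.00131). The call between all controls held without any 1 array, and that between the sham groups was lost when those groups alone were fitted (adjusted p = 0.0827). Its second Affy_ID differed by -1.77 (limma adjusted p = 0.000558). In injured ganglia the ages were close, with 8.35, 8.37 and 8.43 in adult SNI, against 8.29 and 8.62 in young SNI (difference -0.07, interval -0.33 to 0.18). The 8.62 was that of young SNI array 2, in which central glia and central neuron markers were high. As given above, age and sex cannot be told apart between the SNI groups.

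Vamp4 (a VAMP of the trans-Golgi network and endosomes) had 10.05, 10.18 and 9.88 in adult contralateral and 10.37, 10.21 and 10.25 in adult sham, against 9.63 and 9.72 in young contralateral and 9.89, 9.47 and 9.62 in young sham. Adult contralateral array 3 lay just below young sham array 1, and the rest did not overlap. The log2 difference was 0.49 (SE 0.08, limma adjusted p = 0.0105) and was lost as a call without young contralateral array 1 (adjusted p = 0.0609). Its second Affy_ID differed by 0.27 (limma adjusted p = 0.516). Between the sham groups it was 0.62 (limma adjusted p = 0.0348), lost without any 1 of adult sham arrays 1 and 2, adult contralateral array 1, young sham arrays 2 and 3 and young contralateral arrays 1 and 2. The sham call was also lost when the sham groups alone were fitted (adjusted p = 0.178), with a variance trend (0.056), the filter on low values (0.0536), the replicate block (0.077) or the mean of its Affy_IDs (0.0938), the last of which also ended the call between all controls (0.0743).

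Stx8 (an endosomal syntaxin) had 8.64, 9.03 and 8.60 in adult contralateral and 9.53, 8.69 and 8.91 in adult sham, against 8.36 and 8.24 in young contralateral and 8.45, 8.26 and 8.23 in young sham, without overlap. The log2 difference was 0.59 (SE 0.14, limma adjusted p = 0.0420). Syngr3 had 12.06, 12.28 and 12.01 in adult contralateral and 12.16, 12.06 and 12.27 in adult sham, against 12.53 and 12.52 in young contralateral and 12.63, 12.68 and 12.35 in young sham, also without overlap. The log2 difference was -0.40 (SE 0.09, limma adjusted p = 0.0337). Both calls were near the threshold. That of Stx8 was lost without any 1 of 11 arrays (adjusted p of up to 0.133), every array but the 3 of adult sham and the 2 of young SNI. That of Syngr3 was lost without any 1 of 8 arrays, with adjusted p again of up to 0.134: adult sham arrays 1 and 2, adult contralateral arrays 1 and 3, young sham arrays 1 and 2, and both young contralateral arrays. With the replicate block neither was called (adjusted p = 0.108 for Stx8 and 0.101 for Syngr3), and Stx8 was not called when the control groups alone were fitted (0.0645).

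Further members separated the ages without passing the test. Cplx2 (complexin-2) had 6.68, 7.26 and 6.75 in adult contralateral and 5.85, 6.83 and 6.24 in adult sham, against 8.98 and 7.77 in young contralateral and 7.38, 8.96 and 8.45 in young sham. Its groups did not overlap and the log2 difference of -1.72 was larger than that of any member called, with a wider spread (SE 0.45, limma adjusted p = 0.0557). Syn2 (synapsin II) had 10.16, 10.15 and 10.22 in adult contralateral and 10.24, 10.03 and 9.96 in adult sham, against 9.59 and 9.83 in young contralateral and 9.62, 9.75 and 9.41 in young sham (log2 difference 0.48, limma adjusted p = 0.0900). Stx18 differed by 0.42 (limma adjusted p = 0.0899) and Syt3, a plasma membrane synaptotagmin, by 0.46 (limma adjusted p = 0.107). All adult controls lay above all young controls for 4 members (Stx8, Stx18, Syn2 and Syt3) beside 5.02% of all genes, and below them for 4 (Stx1a, Syngr3, Cplx2 and Sv2a) beside 3.19%. Between the sham groups alone the counts were 6 and 4, beside 10.8% and 6.56%.

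The count of called members was not stable to the arrays used, nor were the genes called. Of the 4 called with all arrays, Vamp4, Stx8 and Syngr3 were not called with young sham 2, young contralateral 1 and young SNI 2 all left out. Their log2 differences there were 0.42, 0.61 and -0.36. With young sham 2 and young SNI 2 left out, 8 members passed between adult and young controls (12.9%, beside 7.01% of all genes in that fit), namely Lin7c, Stx1a, Sv2c, Syn2, Syngr3, Syt1, Syt2 and Vamp4, and with young contralateral 1 left out as well, 4 passed (6.45%, beside 3.39%). Leaving out young SNI array 1 or young SNI array 2, which hold no control, gave 7 each (11.3%, beside 8.23% of all genes), and leaving out young contralateral array 1 gave 1 (Stx1a, 1.61% beside 1.17%). Further Affy_IDs of Stx12 (0.78, limma adjusted p = 0.0412) and Snap29 (-1.07, limma adjusted p = 0.0183) also passed, where the Affy_IDs that stood for these genes differed by 0.17 and -0.13. Syt7 had Affy_IDs of opposite sign, 0.27 for the one used and -0.58 for another (unadjusted p = 0.0320, limma adjusted p = 0.221).

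**Figure D4:**
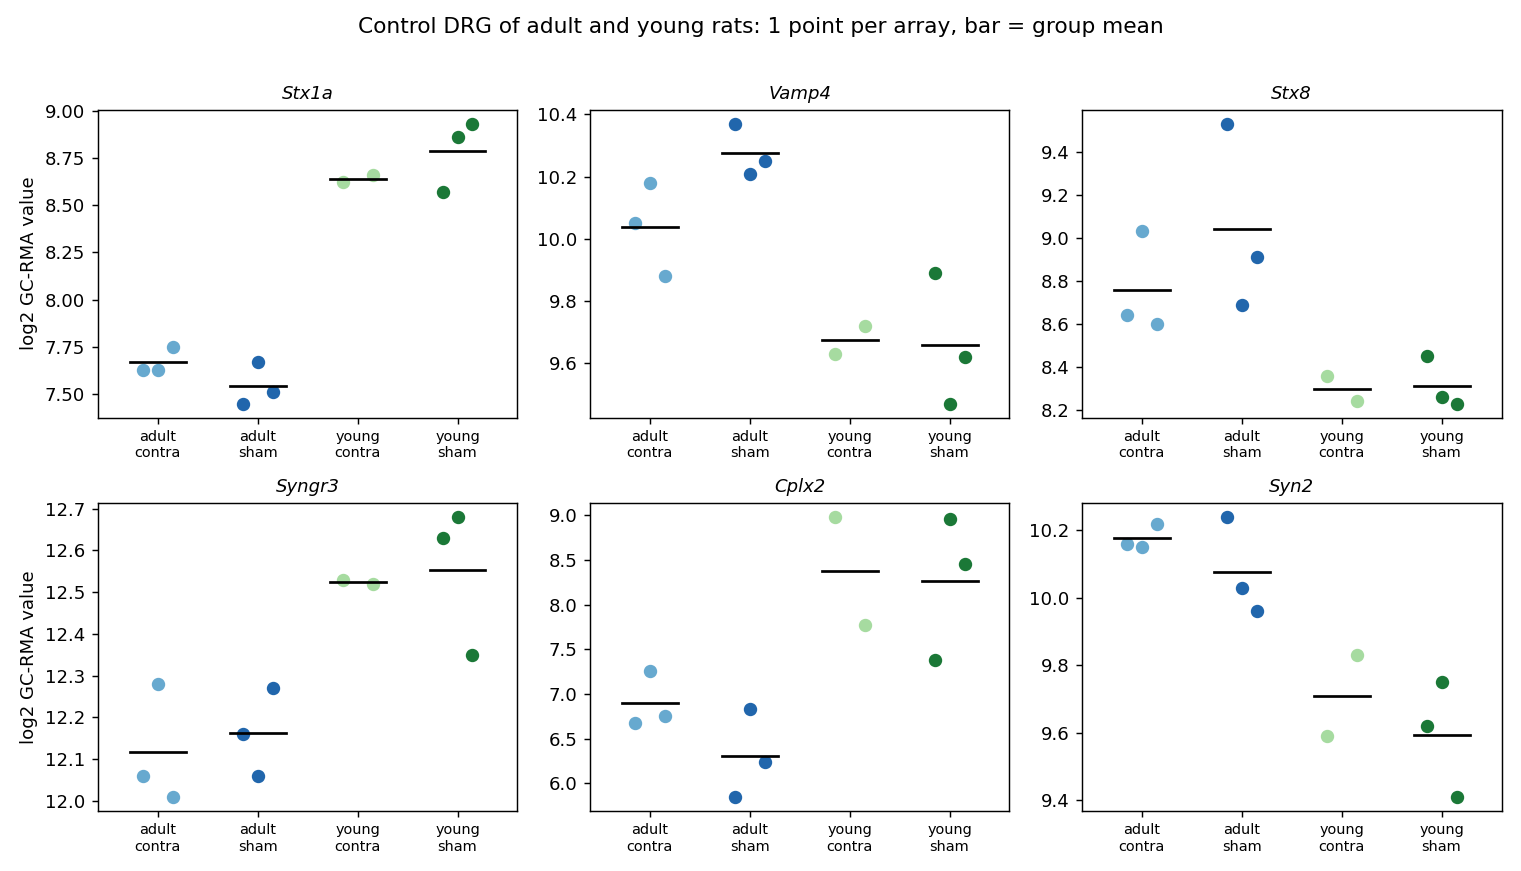
Log2 GC-RMA value (vertical axis) of 6 members in adult and young control arrays, by group (horizontal axis). Points are arrays and bars group means; Stx1a lies at 7.45 to 7.75 in adult and 8.57 to 8.93 in young controls, and the ages overlap in Vamp4 only.

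Between the injured ganglia of both ages, Syt4 was higher and Syt12 and Lin7b lower in adult SNI, 3 members beside 3.36% of all genes, of which 2.55% were higher and 0.809% lower (at an unadjusted p under 0.05, 15 members, where 24% of all genes had that p). Syt4 had 13.19, 13.09 and 13.00 in adult SNI, against 12.17 and 12.18 in young SNI (log2 difference 0.92, SE 0.19, limma adjusted p = 0.0322). Lin7b had 7.75, 8.17 and 7.53 in adult SNI, against 8.95 and 8.56 in young SNI (log2 difference -0.94, SE 0.22, limma adjusted p = 0.0481). Syt12 had 3.80, 4.65 and 3.56 in adult SNI, against 4.89 and 6.02 in young SNI (log2 difference -1.45, SE 0.33, limma adjusted p = 0.0465). The groups did not overlap for these 3 genes, as for 8 members higher and 10 lower in adult SNI, beside 18.7% and 8.57% of all genes. As given above, Xist was low in every adult SNI array and high in both young ones, so age and sex cannot be told apart here. Without young SNI array 2, 0 members passed, with 0.92 for Syt4 (limma adjusted p = 0.155), -1.13 for Lin7b (0.110) and -0.89 for Syt12 (0.371). The call of Syt4 was also lost without adult contralateral array 1 or any 1 of the 3 adult SNI arrays, and those of Syt12 and Lin7b were each lost without any 1 of 14 of the 16 arrays, the exceptions being adult SNI array 2 for both, young SNI array 1 for Syt12 and adult contralateral array 2 for Lin7b. No call was made without adult contralateral array 1 or adult SNI array 3, and 12 without young SNI array 1 (19.4%, beside 21.6% of all genes in that fit). With only these groups fitted, or with array weights, none of the 3 was called.

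The members that varied most between arrays did so within groups as well as between them. A range of over 3 log2 units across the 16 arrays was found for 7 members (Cplx2, Stx3, Sv2a, Sv2c, Syt1, Syt2 and Syt9, named after their values were seen), and 27 members had a range under 1. Syt1, the main calcium sensor of fast release, had 6.76, 7.06 and 6.05 in adult SNI, against 7.56, 7.10 and 7.52 in adult contralateral and 7.04, 6.83 and 6.60 in adult sham. In young rats it had 8.02 and 6.59 in SNI, against 8.71 and 9.25 in contralateral and 8.27, 6.32 and 8.85 in sham, so young SNI array 2 and young sham array 2 fell among the adult values. Syt9, a calcium-binding synaptotagmin, had 5.87, 6.81 and 4.43 in adult SNI, against 7.45, 7.29 and 6.93 in adult contralateral and 6.96, 6.81 and 7.26 in adult sham. In young rats it had 7.12 and 4.82 in SNI, against 7.85 and 8.04 in contralateral and 7.77, 5.15 and 8.13 in sham. Sv2c had 4.46 in adult SNI array 3, 4.43 in young sham array 2 and 3.00 in young SNI array 2, and 5.11 to 7.44 in the other 13 arrays. For Syt1, Syt9 and Sv2c these same 3 arrays were the lowest of all. Syt2, a fast calcium sensor of hindbrain and spinal synapses, had 2.81 in adult SNI array 3, 3.00 in young sham array 2 and 3.92 in young SNI array 2.

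Hexokinase is 1 of 3 control genes with Affy_IDs at both ends of the transcript. The value of its 3′ set minus that of the 5′ set, which is larger where the labelled RNA is shorter, was 2.72 in adult SNI array 3, 2.33 in young SNI array 2 and 2.31 in young sham array 2. It was 1.82 to 2.53 in the other adult arrays and 1.00 to 1.24 in the other young arrays. It thus separated adult controls (1.82 to 2.53) from young controls (1.00 to 1.24, except 2.31 in young sham array 2) as well. Adult sham array 1, at 2.53, was not low for Syt1 (7.04), Syt9 (6.96) or Sv2c (6.08). The same value of beta-actin was 2.84 in young SNI array 2 and 2.63 in young sham array 2, against 2.21 to 2.55 in the other young arrays, but 2.64 in adult SNI array 3, the lowest of the adult arrays (others 2.65 to 3.31). That of GAPDH was 0.27 and 0.23 in the same young arrays, against -0.05 to 0.12 in the other young arrays, and 0.14 in adult SNI array 3, within the 0.07 to 0.22 of the other adult arrays. Adult SNI array 3 thus stood apart in hexokinase only. The part of these controls in the values of Syt1, Syt2, Syt9 and Sv2c, and in the differences between ages, was not tested.

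**Figure D5:**
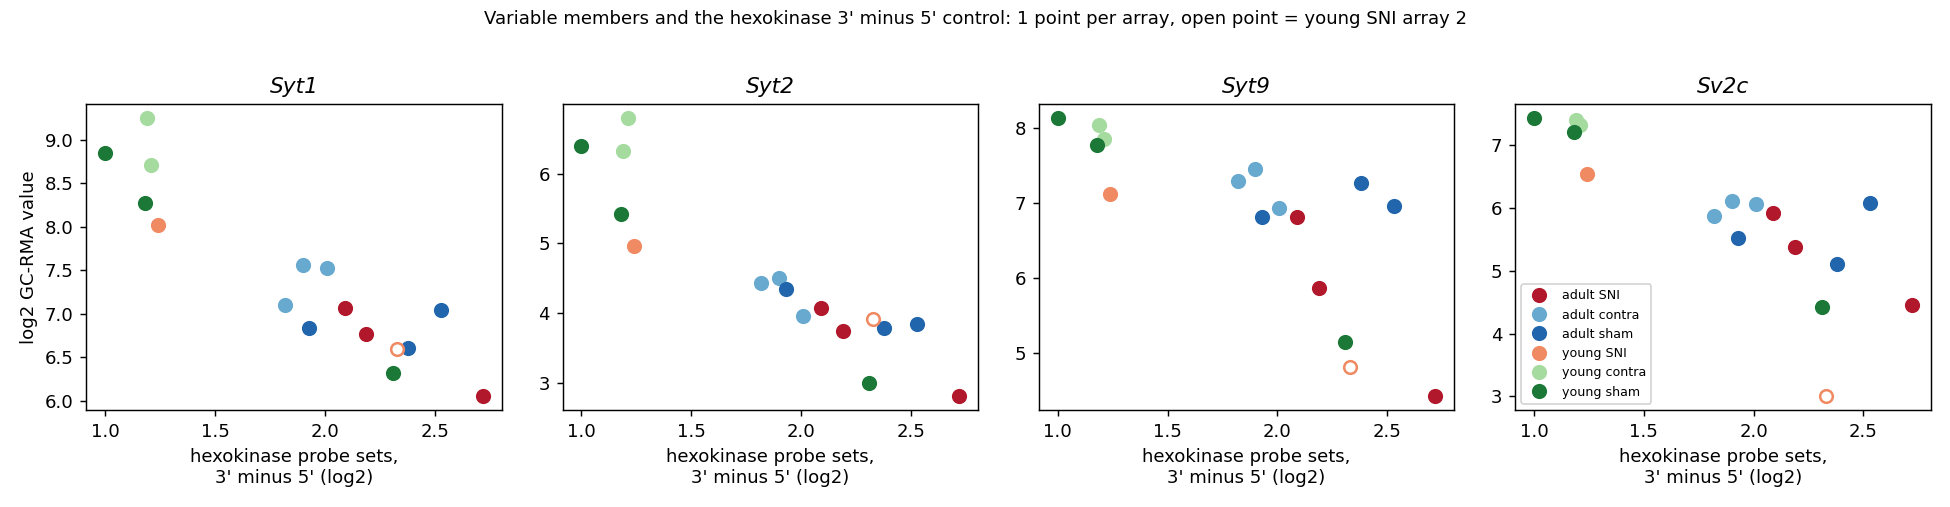
Log2 GC-RMA value (vertical axes) of Syt1, Syt2, Syt9 and Sv2c against the hexokinase 3′ minus 5′ value (horizontal axis, log2) in each of the 16 arrays, coloured by group, with young SNI array 2 open. The 5 young arrays with 1.00 to 1.24 are the highest for Syt1, and adult SNI array 3, at 2.72, is the lowest for Syt1, Syt2 and Syt9.

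Genes that work with the members were taken from a list of exocytosis partners, among them priming factors, active zone proteins, endocytic proteins, transmitter transporters and granule proteins. Of 104 listed genes, 93 were measured. Their calls are given for the fit of all arrays only, without the alternatives given for members. In adult SNI against both controls 0 rose and 1 fell, beside 1.64% and 0.218% of all genes (1.86% in all). Dnm3 (dynamin-3, a GTPase of endocytosis) averaged 8.07 ± 0.63 in adult SNI, against 9.42 ± 0.22 in adult contralateral and 9.05 ± 0.31 in adult sham (SD, n = 3 arrays each), with a log2 difference of -1.17 (SE 0.25, limma adjusted p = 0.0474). Chga (chromogranin A, a dense core granule protein) averaged 9.51 ± 0.28 in adult SNI, against 10.26 ± 0.35 in adult contralateral and 10.35 ± 0.16 in adult sham (SD, n = 3 arrays each), and did not pass (-0.79, limma adjusted p = 0.0655). Slc18a2, the vesicular monoamine transporter, differed by 0.60 (limma adjusted p = 0.139), Pclo, an active zone scaffold, by -1.22 (limma adjusted p = 0.232), Nrxn3, a presynaptic adhesion protein, by -0.61 (limma adjusted p = 0.233) and Cadps, a priming factor of dense core vesicles, by -0.45 (limma adjusted p = 0.249). At an unadjusted p under 0.05, 5 partners were higher and 14 lower, 20.4% beside 13% of all genes, and their median log2 difference was -0.03. In young SNI 0 partners passed against sham, contralateral or both, beside 0.0211%, 0.0141% and 0.0211% of all genes. An unadjusted p under 0.05 was found for 7, 8 and 12 partners. These were 7.53%, 8.6% and 12.9%, beside 7.11%, 6.65% and 9.35% of all genes. Between controls of both ages, Scg5 (secretogranin V, a chaperone of a prohormone convertase) was higher in adults, by 0.44 (SE 0.07, limma adjusted p = 0.00547), and Erc1 (an active zone protein) lower, by -0.46 (SE 0.11, limma adjusted p = 0.0420), 2 of 93 partners beside 5.25% of all genes.

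Not every member was measurable above the background of the array. Syn3, Syt8, Syt10 and Syt13 stayed below a log2 value of 3 in all arrays, where a fall could not have been seen, and 54 members exceeded 4 in at least 2 arrays. The 10 members with the highest mean value were Snap25, Vamp1, Cplx1, Sv2b, Rab3a, Stx7, Syt4, Syngr3, Syp and Stx12, and of these only Syt4 was called in a comparison with SNI and only Syngr3 between controls of both ages. Vamp1 (synaptobrevin-1) had 13.75, 13.93 and 13.83 in adult SNI, against 14.00, 14.22 and 14.03 in adult contralateral and 13.94, 13.92 and 14.02 in adult sham. Stx7, a late endosome syntaxin, had 12.79, 12.68 and 12.62 in adult SNI, against 12.70, 12.69 and 12.65 in adult contralateral and 12.28, 12.64 and 12.54 in adult sham. Stx12, a recycling endosome syntaxin, had 11.73, 11.70 and 11.72 in adult SNI, against 11.64, 12.02 and 11.68 in adult contralateral and 11.69, 11.65 and 11.86 in adult sham. For Stx7 and Stx12 the adult groups overlapped, and Vamp1 in adult SNI lay below the contralateral side and overlapped sham.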

How the data were processed

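DRG of 6 groups were hybridised to 16 Affymetrix rat genome arrays. The deposited log2 values, which the authors obtained with GC-RMA, were used as given, to 2 decimals; the authors had removed outlier arrays beforehand, and their versions of GC-RMA and limma are not stated here. An array gives no depth, so the number of pools limits the precision. Array controls (57 Affy_IDs) were left out. The other 31042 Affy_IDs were tested with limma 3.58.1 (R 4.3.3), with 6 group means, empirical Bayes variances (prior degrees of freedom 1.24, residual 10) and Benjamini-Hochberg adjustment over all Affy_IDs within each comparison, threshold 0.05. Of these, 20826 had 1 gene symbol, 436 several and 9780 none, and percentages of all genes are over 14217 genes with 1 Affy_ID each. Nothing in the labels says more of the pools than given, so p-values measure the spread between them.

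Members, lists and tests were chosen with earlier results of these data known. Genes named with values were members past the threshold, the 6 of smallest p in a comparison, the 10 of highest mean, the highest of each family, the 8 farthest outside in young SNI array 2, members whose Affy_IDs differ in direction, and partners past the threshold or among the 6 of smallest p; any other was picked with its values in view. The fit was tested on simulated data. Same-numbered adult SNI and contralateral arrays deviated together (r over Affy_IDs 0.449, 0.445 and 0.362), so the number was also fitted as a block. That block covered sham and young arrays too. Same-numbered pairs with adult sham had r of -0.041 to 0.2, and in young arrays pairing was not shown. Alternatives were a fit of only the groups compared, a variance trend, a robust prior, a filter (log2 over 4 in at least 2 arrays), array weights, quantile normalization, the replicate block, other uses of Affy_IDs and each array left out. Windows of 250 bases before the start came from RefSeq (GRCr8). Python 3.11.15, pandas 2.3.3 and matplotlib 3.10.9 were used for tables and figures.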

Additional observations from a re-analysis of the deposited data

Results flagged for a closer look

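The response of Stx1a to SNI differed between ages by a test of the difference itself, by 1.03 on the log2 scale for the adult response less the young one (SE 0.14, limma adjusted p = 0.0238). All 3 adult SNI arrays lay above all 6 adult controls, and young SNI array 1 lay below all 5 young controls while array 2 did not. The call was lost with a variance trend (adjusted p = 0.0616), the filter on low values (0.0544), quantile normalization (0.219) and without any 1 of 5 of the 16 arrays (0.0564 to 0.0718). With young sham 2 and young SNI 2 left out the difference was 1.18 (limma adjusted p = 0.0110), and with young contralateral 1 left out as well 1.19 (limma adjusted p = 0.0267). In these fits young SNI, and in the second also young contralateral, was a single array whose spread was taken from the other groups. Some young labels went against the injury markers, and the part of this in the young response was not tested. Xist was high in both young SNI arrays and low in all adult arrays, young sham 2 and young contralateral 1. The part of sex was not tested either.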

How the results depend on the processing

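Each called member kept its direction in the comparison that called it, under every alternative run, and counts of called members moved. Some members not called did not, such as Syt16, Syt17 and Rab3b in young SNI without array 2. Leaving out 1 array at a time gave 1 to 3 called members in adult SNI against sham, 0 to 3 against contralateral, 1 to 3 against both, 0 to 8, 0 to 9 and 0 to 11 in the young SNI comparisons with sham, contralateral and both, 0 to 11 for the adult less the young response, 1 to 2 between shams, 1 to 7 between controls of both ages and 0 to 12 between adult SNI and young SNI. The 8, 9, 11, 11 and 12 came without young SNI array 1. With only the groups compared in the fit, 1 member was called in adult SNI against sham (beside 0.401% of all genes) and 1 against contralateral (beside 1.96%). Between shams 0 were called (beside 0.0422%), and 0 between adult and young SNI (beside 0.00703%). The response difference uses all groups and has no such fit. Quantile normalization gave 1 against sham (beside 0.577% of all genes) and 1 against contralateral (beside 1.55%). It gave 0 for the response difference (beside 0.162%) and 1 between adult and young SNI (beside 3.92%). Array weights gave 5 against contralateral (8.06%, beside 3.59% of all genes) and 8 between controls (12.9%, beside 10%). Between adult and young SNI they gave 0 (beside 0.345%). A variance trend gave 0 for the response difference (Stx1a lost, beside 0.12% of all genes) and 1 between shams (beside 0.647%). The filter on low values gave the same counts (beside 0.2% and 1.58%), and the robust prior 1 between adult and young SNI (beside 2.83%). The mean of a gene's Affy_IDs gave 2 for the response difference, 1 between shams and 5 between adult and young SNI. The replicate block (pairing by number) gave 3 in adult SNI against contralateral, beside 0.774% of all genes. Between shams it gave 1, where Vamp4 was lost (limma adjusted p = 0.077), beside 0.732%. Between controls it gave 3, with Stx8 (0.108) and Syngr3 (0.101) lost, beside 3.49%. Syt12 was lost between adult and young SNI (0.113). Pairing by number was seen only between adult SNI and adult contralateral arrays. In settings chosen after seeing the data, leaving out young sham 2 and young SNI 2 gave 8 between controls and 0 between adult and young SNI, and leaving out young contralateral 1 too gave 1 in adult SNI against contralateral and 0 between adult and young SNI. The causes were not tested. With 2 or 3 pools a group, a small change could be missed.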
